A study of Kandelia obovata with 24 samples.

Results

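Leaves of the mangrove *Kandelia obovata* labelled ABA-100 (9.7 ℃) were set against leaves labelled CK (9.7 ℃), the last of 4 stages of a natural frost, when the temperature had recovered. The members of the comparison were taken from the labels and not from any measured value, and they are 3 libraries of each group, 6 of the 24 in the series. CK is the control, which the labels call wild type and to which they give a temperature and no ABA. The study's design has a spray at 0 mg per litre of ABA, but the labels do not say whether CK leaves received it. ABA-100 leaves came from seedlings given a foliar spray of 100 mg per litre of ABA between the samplings at 10.2 ℃ and -4.1 ℃, so the leaves labelled ABA-100 (10.2 ℃) had not yet been sprayed. Both treatments were sampled at 10.2, -4.1, -5.3 and 9.7 ℃, which gives 8 groups of 3 libraries, and leaves were taken from the same seedlings at each stage. All seedlings stood in the same field frost, and no group of seedlings was kept out of it. Per the study's methods, the leaves at 10.2 ℃ were taken before the freezing temperatures.

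The labels of the libraries conflict with the volcano plots of the paper. Every direction below therefore holds for the libraries as they are labelled, and a difference between libraries labelled ABA-100 and CK may not be an effect of ABA. The codes of the CK libraries labelled 9.7 ℃ start with B4 and those of the ABA-100 libraries with D4. No library was moved to another group.

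Abscisic acid (ABA) is the hormone that plants make under water deficit and cold. It binds soluble receptors that then inhibit type 2C protein phosphatases, which frees SnRK2 kinases to act on transcription factors and ion channels. Calcium, reactive oxygen made by NAD(P)H oxidases of the plasma membrane, MAP kinase cascades and sphingolipids are among the signals known to act with ABA in leaves. The abundance table gives each assembled transcript (unigene) an identifier and no gene name. Annotations existed for 12 hub unigenes of a co-expression network only, so pathway lists and leaf markers could not be checked.

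Values are TPM, a relative abundance that is corrected for transcript length and has the same total in every library, and the read depth behind each value is unknown. TPM comes from whole leaves, in which fewer cells of a type and less RNA per cell cannot be told apart. Across the 6 libraries, 25685 to 27061 of 33344 unigenes had a TPM above 0. The 3 CK libraries had 25780, 26200 and 25685 such unigenes and the 3 ABA-100 libraries had 27061, 26613 and 26516. Every ABA-100 library thus had more, by 842 unigenes on average (two-sided exact permutation test, p = 0.1, the smallest that 3 against 3 allows). The 10 most abundant unigenes held 19.1%, 18.7% and 18.4% of the TPM in CK and 14.9%, 17.8% and 17.7% in ABA-100, a difference of -1.90 percentage points (exact permutation test, p = 0.1). Without ABA-100 replicate 1 the difference was -0.96 percentage points.

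The replicates were not equally far apart. Over 1174 unigenes with a mean of at least 100 TPM, the robust spread of the log2 ratio between 2 libraries was 0.0496 for CK replicates 1 and 2, and 0.144 and 0.145 between either of them and replicate 3. In ABA-100 it was 0.0560 for replicates 2 and 3 and 0.210 and 0.215 between these and replicate 1. In each of the 8 groups 1 pair was closer than the other 2, with a spread of 0.0443 to 0.0632 against 0.0766 to 0.215. It stood out least in ABA-100 (10.2 ℃), at 0.0632 against 0.0800 and 0.0897. The study calls the 3 replicates biological, but the labels do not say which seedlings they came from, so p-values measure only the spread between these libraries. Whether a close pair is a single leaf sample could not be tested without counts. Each main count is therefore also given with the close pair of each group averaged to 1 value, an alternative chosen after the data were seen.

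A unigene counted as differentially expressed (a DEG) where limma on log2(TPM + 1), run on all 24 libraries together, gave an adjusted p (Benjamini-Hochberg) of at most 0.05 and a log2 fold change above 1 or below -1. Of 21523 unigenes tested, 863 (4.01%) were DEGs. In ABA-100, 772 (3.59%) were up-regulated and 91 (0.423%) were down-regulated. With quantile normalization the split was 594 against 155, and with the close pairs averaged it was 724 against 65. Of the 772 and 91, 650 and 52 were called again with the close pairs averaged. At the adjusted p alone, without the fold threshold, 3240 were up and 1713 down. Over every unigene tested, the log2 fold change had a median of 0.04.

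Most DEGs lay in the lowest class of size. A log2 fold change of 1 to 1.5 held for 443 up- and 70 down-regulated DEGs, and one above 3 for 34 and 1. All 3 ABA-100 libraries lay above all 3 CK libraries for 757 of the 772 up-regulated DEGs, and below them for 82 of the 91 down-regulated DEGs. Over all unigenes tested the same held for 4817 and 2713. The DEGs were called on these same libraries, so the lack of overlap gives no further support to the calls. Up-regulated DEGs made up 2.12% of the unigenes with a mean below 1 TPM, 5.55% of those at 1 to 10 TPM, 2.92% at 10 to 100 TPM and 2.56% above 100 TPM. The up-regulated DEGs thus lay in all classes of abundance, but 388 of the 772 were in the class of 1 to 10 TPM. That class also had the highest share. The down-regulated DEGs made up 0.375%, 0.558%, 0.374% and 0.170% of the same classes.

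**Figure D1:**
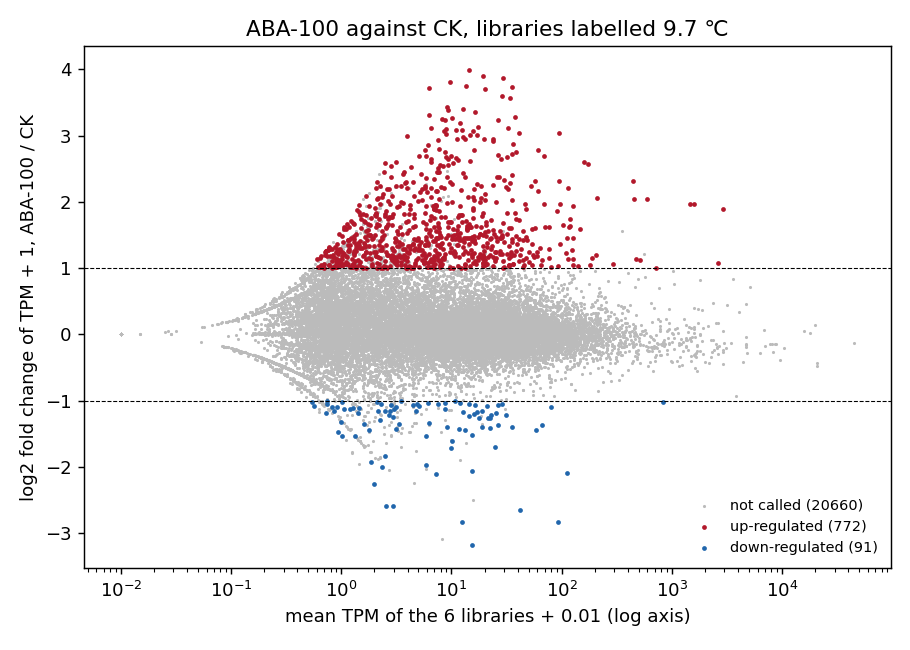
Log2 fold change of TPM + 1 in ABA-100 against CK, labelled 9.7 ℃, by mean TPM of the 6 libraries on a log axis, 1 point per unigene tested. The 772 up-regulated DEGs (red) lie above the upper dashed line at 1 and the 91 down-regulated DEGs (blue) below the line at -1.

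Together the 772 up-regulated DEGs held 12017, 11587 and 10700 TPM in the CK libraries and 43316, 33683 and 32668 TPM in the ABA-100 libraries. The highest sum was that of ABA-100 replicate 1, the library that lay apart from the others of its group. The 91 down-regulated DEGs held 2920, 3007 and 2795 TPM in CK and 1183, 1103 and 1087 TPM in ABA-100. These sums describe the members that the test picked and give no further support to it.

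Among the 12 annotated hub unigenes, 4 were up-regulated, 1 was down-regulated and 7 were not called. Over all unigenes tested, 3.59% were up-regulated and 0.423% down-regulated. The 12 hubs had a median log2 fold change of 0.61, against 0.04 over all unigenes tested. The study chose these 12 on these libraries, so the count is no independent evidence of a direction. None of the 5 calls was lost under any alternative in which the unigene was tested.

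The ferrochelatase unigene DN3958_c0_g1 showed the largest log2 fold change of the 12 on the scale of TPM + 1. Ferrochelatase inserts iron into protoporphyrin, the last step of heme synthesis, and heme is the cofactor of catalases and peroxidases. Its TPM was 11.5, 11.4 and 11.2 in CK and 32.0, 37.4 and 38.3 in ABA-100. The groups were far apart, at 3.16-fold (log2 fold change 1.57 ± 0.09 SE, limma adjusted p 1.44e-10).

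The sphingolipid unigene DN8005_c0_g2 stood at 6.27, 5.57 and 4.33 TPM in CK and 17.5, 16.6 and 17.4 TPM in ABA-100. Sphingolipids are membrane lipids whose long-chain bases and ceramides also act as signals. The ratio of means was 3.19, slightly above that of the ferrochelatase (log2 fold change 1.52 ± 0.13 SE, limma adjusted p 4.37e-08). DN2948_c0_g1, annotated only to the nucleus, had 10.4, 11.4 and 7.51 TPM in CK and 28.5, 29.9 and 29.0 TPM in ABA-100, which is 2.98-fold (limma adjusted p 1.18e-08).

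The serine/threonine phosphatase DN477_c0_g1 passed both thresholds and the serine/threonine kinase DN3221_c0_g1 only that on p. Protein phosphatases remove the phosphate groups that kinases add, and some of this class hold ABA signalling off. The phosphatase had 9.48, 9.26 and 8.50 TPM in CK and 20.5, 22.1 and 22.7 TPM in ABA-100, 2.40-fold higher (log2 fold change 1.17 ± 0.06 SE, limma adjusted p 1.17e-10). The kinase had 33.2, 31.2 and 36.2 TPM in CK and 63.7, 60.4 and 62.0 TPM in ABA-100. Its groups did not overlap either, but its log2 fold change of 0.87 ± 0.07 (SE) stayed under the fold threshold (limma adjusted p 4.04e-08).

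The zinc-binding transcription regulator DN1524_c0_g1 was the hub that fell. It had 23.0, 23.7 and 22.8 TPM in CK and 7.01, 7.65 and 7.72 TPM in ABA-100, a mean of 7.46 ± 0.39 against 23.1 ± 0.51 (SD, n = 3 libraries). The log2 fold change was -1.51 ± 0.08 (SE, limma adjusted p 6.65e-11).

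The other 6 hubs passed neither threshold. The NAD(P)H oxidoreductase DN7864_c0_g1, whose annotation names peroxidase activity and calcium binding as plant respiratory burst oxidases have, stood at 2.78, 3.54 and 4.46 TPM in CK and 7.85, 4.52 and 5.64 TPM in ABA-100 (limma adjusted p 0.124). Phenylalanine ammonia-lyase, DN13229_c0_g1, opens the phenylpropanoid pathway to lignin and flavonoids. It stood low in both groups, at 2.02, 1.97 and 1.41 TPM in CK and 3.34, 2.74 and 2.22 TPM in ABA-100 (limma adjusted p 0.507). The MAP kinase kinase kinase DN3196_c0_g1, the top tier of a kinase cascade, had 16.0, 16.2 and 18.5 TPM in CK and 11.7, 12.8 and 11.99 TPM in ABA-100 (limma adjusted p 0.105). The groups of these 3 hubs did not overlap, but none of them was called. Of the 21523 unigenes tested, 4817 lay higher and 2713 lower in ABA-100 without overlap. The DNA-binding regulator DN5170_c1_g1 and the membrane hub DN8109_c0_g1 overlapped between the groups, with log2 fold changes of 0.63 and -0.28. DN7698_c0_g1, anchored at the plasma membrane, had a log2 fold change of 0.40 with no overlap (limma adjusted p 0.169).

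**Figure D2:**
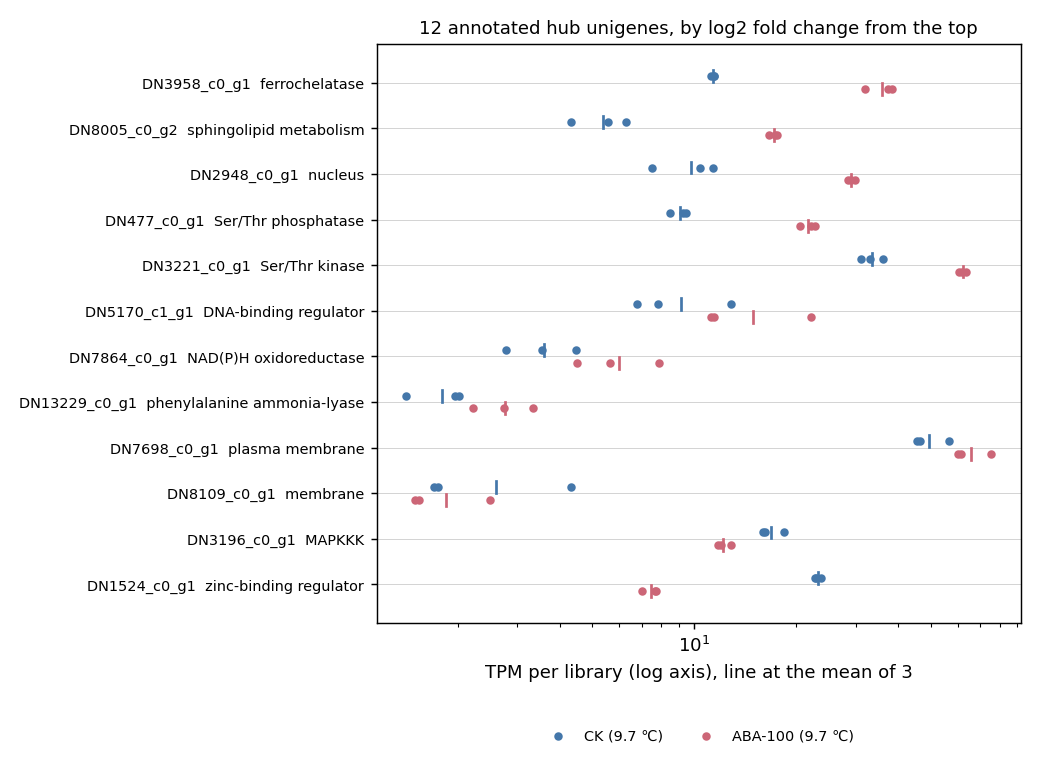
TPM of the 12 annotated hub unigenes in the 3 CK (9.7 ℃) and 3 ABA-100 (9.7 ℃) libraries on a log axis, 1 point per library with a line at each mean, ordered by log2 fold change. The ferrochelatase, at 11.2 to 11.5 TPM in CK and 32.0 to 38.3 TPM in ABA-100, heads the order, and the zinc-binding regulator is last.

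The 8 largest increases were taken among the up-regulated DEGs whose groups did not overlap and whose mean in ABA-100 was at least 10 TPM. Because they have no annotation, they are given by identifier. DN5_c0_g1 had 1.14, 1.16 and 0.29 TPM in CK and 27.9, 27.2 and 28.4 TPM in ABA-100, and its log2 fold change of 3.99 ± 0.33 (SE) was the highest of all (limma adjusted p 2.72e-08). DN8705_c0_g2 had 0.39, 0.38 and 0.40 TPM in CK and 13.4, 21.6 and 21.8 TPM in ABA-100. That was a ratio of means of 48.6 (limma adjusted p 1.01e-10), and the log2 fold change on TPM + 1, 3.81, understates the ratio at such low CK values.

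DN823_c0_g1 rose from 3.62, 3.63 and 1.49 TPM to 74.0, 45.6 and 46.6 TPM (log2 fold change 3.87). DN4077_c0_g1 rose from 4.93, 5.44 and 2.26 TPM to 56.0, 74.1 and 68.5 TPM (log2 fold change 3.74). DN7273_c0_g1 rose from 1.41, 1.98 and 0.94 TPM to 21.5, 45.6 and 43.7 TPM (log2 fold change 3.905). In each of the 3, ABA-100 replicate 1 or CK replicate 3 was the library farthest from its group. DN10995_c0_g1 (log2 fold change 3.76) and DN11456_c0_g1 (3.71) followed, the latter listed at 0 in CK replicate 2 and at 4.40 and 3.64 TPM in the others. All 7 unigenes were called again with the close pairs averaged.

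The 8 largest decreases were taken by the same rule, from the down-regulated DEGs without overlap that had a mean of at least 10 TPM in CK. DN24845_c0_g1 fell from 73.0, 63.6 and 83.1 TPM in CK to 9.81, 13.9 and 9.02 TPM in ABA-100 (log2 fold change -2.65 ± 0.19 SE, limma adjusted p 4.94e-09). DN17299_c0_g1 fell from 148, 211 and 133 TPM to 26.7, 15.7 and 24.5 TPM (log2 fold change -2.83 ± 0.47 SE, limma adjusted p 0.000182). DN2759_c0_g1 fell from 214, 212 and 118 TPM to 33.7, 43.8 and 44.8 TPM (log2 fold change -2.09). DN32973_c0_g1 (-2.10), DN13682_c0_g1 (-2.06) and DN9664_c0_g2 (-1.98) were also among the 8.

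The remaining 2 of the 8 rested on few libraries. DN3142_c0_g1 had 21.7, 19.9 and 31.4 TPM in CK, but 18.1 TPM in ABA-100 replicate 1 against 0.03 and 0.07 TPM in the other 2. Its call was lost with the close pairs averaged (limma adjusted p 0.107). DN16641_c2_g1 had 33.0, 14.8 and 18.2 TPM in CK and 5.46, 3.38 and 0 TPM in ABA-100. Its adjusted p of 0.0369 in limma rose to 0.114 with the close pairs averaged and was 0.0566 to 0.121 on leaving out any CK library, and 0.051 and 0.178 without ABA-100 replicates 2 and 3.

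**Figure D3:**
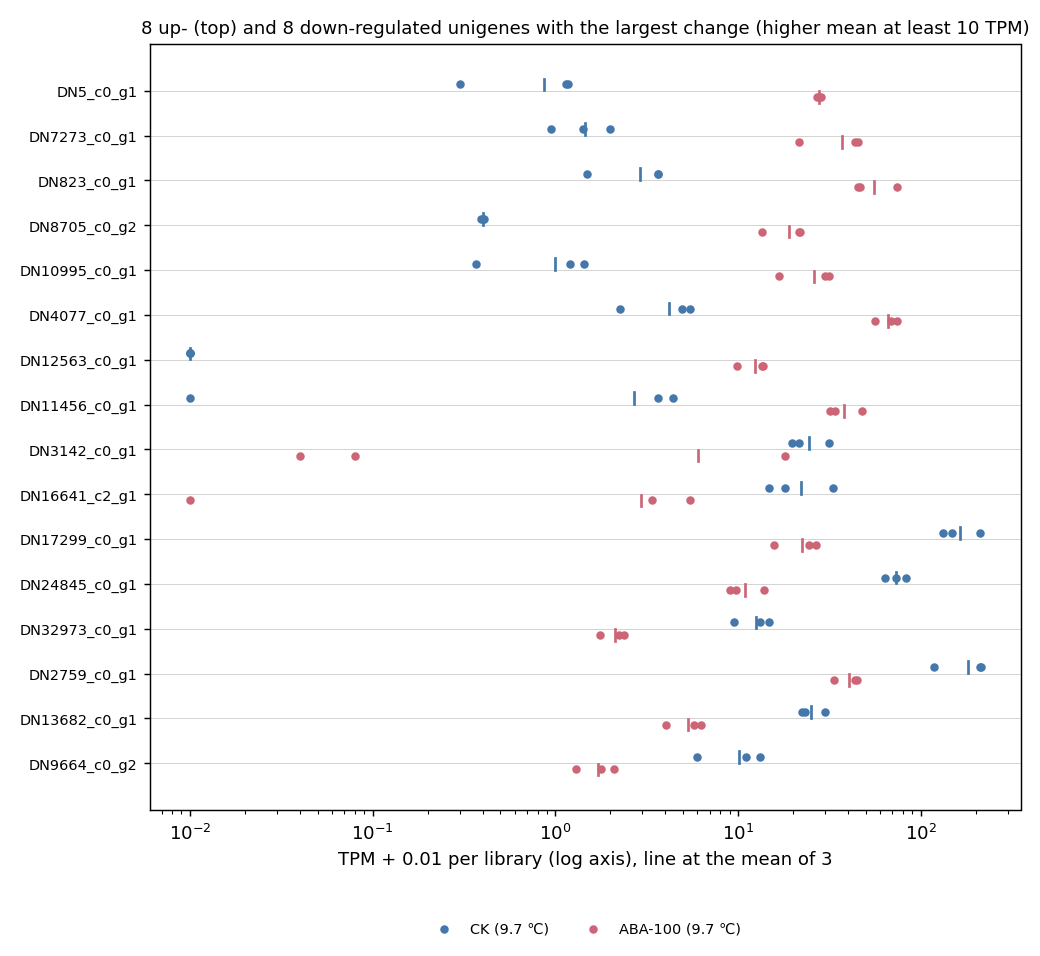
TPM + 0.01 per library, on a log axis, of the 8 up-regulated (upper rows) and 8 down-regulated (lower rows) DEGs with the largest log2 fold change among those whose groups do not overlap and whose higher group has a mean of at least 10 TPM, 3 CK (blue) and 3 ABA-100 (red) libraries at 9.7 ℃ with a line at each mean. DN3142_c0_g1 has a single ABA-100 library at 18.1 TPM, close to the lowest CK value of 19.9 TPM.

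The 4 most abundant up-regulated DEGs were abundant in CK as well. DN24482_c1_g1 had 1477, 1178 and 964 TPM in CK and 5961, 4220 and 3472 TPM in ABA-100, 3.77-fold higher (limma adjusted p 1.2e-07). DN25507_c0_g1 had 722, 665 and 524 TPM in CK and 3396, 2104 and 2134 TPM in ABA-100, 3.99-fold higher. DN25301_c1_g1 had 713, 656 and 429 TPM in CK and 3109, 1953 and 1967 TPM in ABA-100, 3.91-fold higher. In these 3 the highest value was that of ABA-100 replicate 1, and the 2 closer replicates still lay above every CK library. DN3254_c0_g1 was evenly spread, with 1705, 1670 and 1639 TPM in CK and 3800, 3535 and 3261 TPM in ABA-100 (log2 fold change 1.08).

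Among the down-regulated DEGs the most abundant was DN20971_c0_g1, at 1038, 1091 and 1180 TPM in CK and 600, 516 and 523 TPM in ABA-100. Its log2 fold change of -1.01 ± 0.06 (SE) was just past the fold threshold, and it was -0.96, -0.97 and -0.98 without CK replicate 3, ABA-100 replicate 2 and ABA-100 replicate 3. DN3583_c0_g1 had 126, 134 and 70.6 TPM in CK and 37.1, 51.8 and 61.9 TPM in ABA-100 (log2 fold change -1.09, limma adjusted p 0.0102). That call was lost with the close pairs averaged (limma adjusted p 0.13) and without CK replicate 1 (log2 fold change -0.97), CK replicate 2 (-0.92) or ABA-100 replicate 1 (-0.89).

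The 5 most abundant unigenes of the 6 libraries were not DEGs. DN24444_c2_g1 alone held 48346, 48223 and 42788 TPM in CK and 34576, 46723 and 47867 TPM in ABA-100, and the groups overlapped. DN19787_c1_g1 and DN19695_c0_g1 were lower in every ABA-100 library, by log2 fold changes of -0.47 and -0.44 (limma adjusted p 0.0178 and 0.0374), short of the fold threshold. DN17056_c1_g1 and DN11670_c0_g1 overlapped between the groups, with log2 fold changes of 0.14 and 0.02.

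Some unigenes were listed at 0 TPM in a whole group. At 0 in all 3 CK libraries and at 1 TPM or more in all 3 ABA-100 libraries were 31 unigenes, of which 24 were called. The reverse held for 10, of which 6 were called. This choice sets the log2 fold change of TPM + 1 at 1 or more in size. The share called can therefore not be set against the 4.01% of all unigenes tested. DN12563_c0_g1 had 9.88, 13.7 and 13.6 TPM in ABA-100 (limma adjusted p 0.0127), DN10574_c0_g1 had 4.97, 4.58 and 14.2 TPM (0.000648) and DN11480_c0_g2 had 5.3, 4.89 and 4.83 TPM (0.000181). Of the 18 libraries of the other stages, DN11480_c0_g2 was listed above 0 in 1, ABA-100 (-4.1 ℃) replicate 2, at 5.35 TPM. In the other direction, DN11177_c0_g2 had 11.2, 3.35 and 3.07 TPM in CK (limma adjusted p 0.00577). DN15382_c0_g1 had 4.89, 4.32 and 5.98 TPM and DN11056_c1_g1 had 2.27, 4.02 and 5.56 TPM, with limma adjusted p of 0.042 and 0.0433. Those 3 calls were lost with the close pairs averaged, and for the last 2 also on leaving out any of the 6 libraries. An entry of 0 may lie under the depth of a library, and no fold change is given against it.

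Trinity names group unigenes that share sequence into components. Components with at least 2 unigenes tested held 34.4% of the DEGs and 35.0% of all unigenes tested. In 43 components 2 or more unigenes were DEGs, and these were all up-regulated in 42, all down-regulated in 1 and mixed in 0. Members that were not called are left out of this count. Beside 2 up-regulated members each, DN7273_c0_g2 had means of 35.5 TPM in CK and 36.6 TPM in ABA-100 (log2 fold change 0.07). DN8005_c0_g1 had 4.41 and 4.14 TPM (-0.08). Reads that fit several unigenes of a component may have been divided among them, so such members are not separate observations.

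The next question was whether the same unigenes differed between the labelled treatments at the earlier stages, which were measured in other libraries. At 10.2 ℃, before the spray, 717 unigenes (3.33%) were up and 347 (1.61%) down in the libraries labelled ABA-100. At -4.1 ℃ these were 989 (4.6%) and 359 (1.67%), and at -5.3 ℃ 99 (0.46%) and 292 (1.36%). Since the same seedlings were sampled at each stage, a difference that stood between the seedlings before the spray and one that came with it cannot be told apart within the contrast at 9.7 ℃.

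Of the 772 unigenes up-regulated at 9.7 ℃, 376 were also up-regulated at 10.2 ℃, which is 48.7% of them and 52.4% of the 717. At -4.1 ℃ the same held for 482, or 62.4% of the 772 and 48.7% of the 989. At -5.3 ℃ it held for 34, or 4.40% of the 772 and 34.3% of the 99. The opposite direction was called for 17, 9 and 23. For these 772, the median log2 fold change was 0.98 at 10.2 ℃, 1.41 at -4.1 ℃ and 0.03 at -5.3 ℃, against -0.14, -0.09 and -0.15 over all unigenes tested. Up-regulation at no other stage was found for 246, and at all 4 stages for 24. With the close pairs averaged the shared counts were 365, 461 and 30.

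The down-regulated DEGs were followed in the same way. Of the 91, 12 were also down at 10.2 ℃ (13.2%, and 3.46% of the 347), 21 at -4.1 ℃ (23.1%, and 5.85% of the 359) and 16 at -5.3 ℃ (17.6%, and 5.48% of the 292). Their median log2 fold change was -0.24, -0.49 and -0.37 at those stages and -1.21 at 9.7 ℃. For 59 of the 91 no other stage gave the same call, and for 6 all stages did. The opposite direction was called for 6, 8 and 5 at 10.2, -4.1 and -5.3 ℃. A log2 fold change below 0 at these stages held for 63.7%, 67.0% and 72.5% of the 91. Over all unigenes tested it held for 65.0%, 59.9% and 67.4%.

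**Figure D4:**
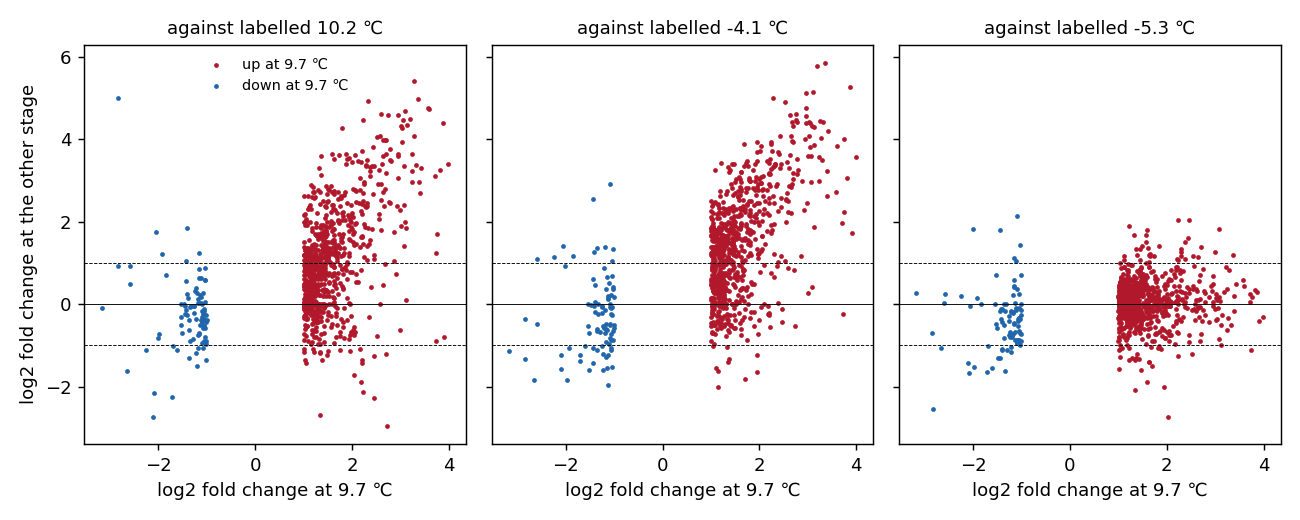
Log2 fold change of ABA-100 against CK of the 863 DEGs at 9.7 ℃ (x axis) against that at 10.2, -4.1 and -5.3 ℃ (y axes), 1 point per unigene, dashed lines at 1 and -1. Up-regulated DEGs (red) had medians of 0.98 and 1.41 at 10.2 and -4.1 ℃ and of 0.03 at -5.3 ℃.

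The same 772 unigenes were followed through all 24 libraries. Their median level in log2(TPM + 1), relative to CK (9.7 ℃), was 1.02 in ABA-100 (10.2 ℃), 1.47 in ABA-100 (-4.1 ℃), 0.42 in ABA-100 (-5.3 ℃) and 1.42 in ABA-100 (9.7 ℃). It was 0.03, 0.08 and 0.39 in CK at 10.2, -4.1 and -5.3 ℃. The group with the highest mean was ABA-100 (-4.1 ℃) for 332 of them (43.0%), ABA-100 (9.7 ℃) for 305 (39.5%) and ABA-100 (10.2 ℃) for 105 (13.6%). Over all unigenes tested these shares were 12.7%, 17.5% and 6.95%. The choice of the members at 9.7 ℃ in part fixes the share of ABA-100 (9.7 ℃) and the low level of CK (9.7 ℃). At -5.3 ℃ the labelled treatments lay close together for this set.

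For the 91 down-regulated DEGs, CK (9.7 ℃) was the highest group for 48 (52.7%) and ABA-100 (9.7 ℃) the lowest for 45 (49.5%). Over all unigenes tested these shares were 9.12% and 9.57%. Relative to CK (9.7 ℃), the median level of the 91 was -0.59, -0.65 and -0.26 in CK at 10.2, -4.1 and -5.3 ℃. In ABA-100 from 10.2 to 9.7 ℃ it was -0.93, -0.92, -0.77 and -1.21. In this set CK at 9.7 ℃ thus lay above the other groups and ABA-100 at 9.7 ℃ below them. The choice of its members in part fixes both.

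**Figure D5:**
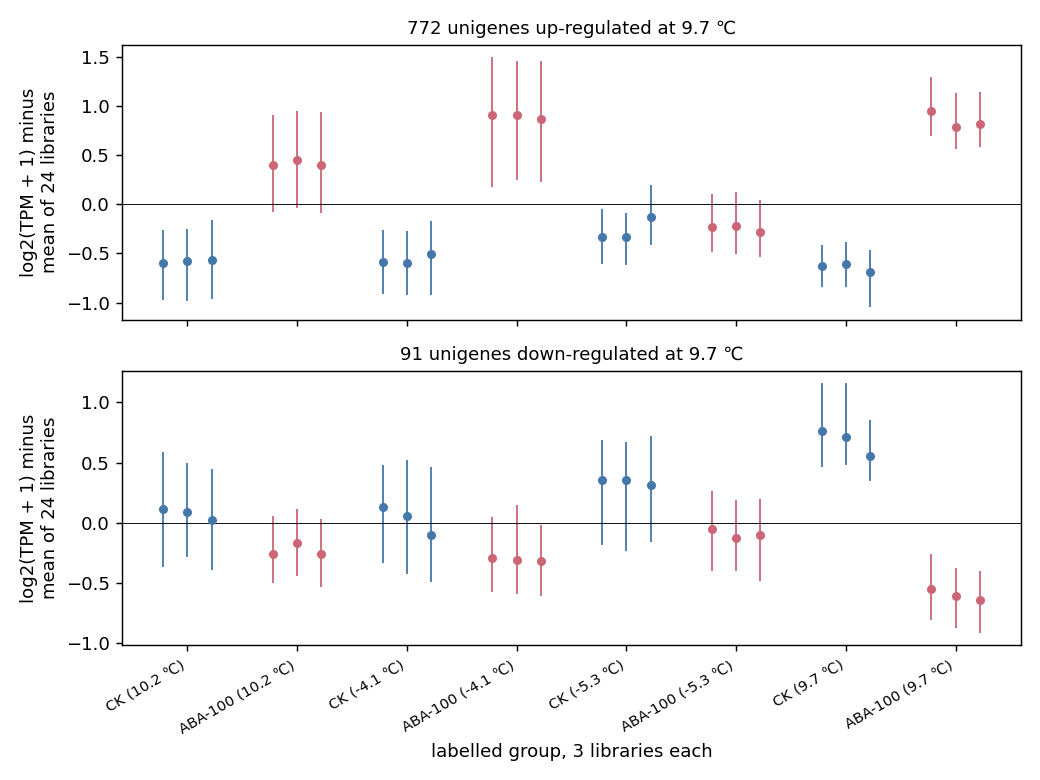
Median (points) and quartiles (bars) of log2(TPM + 1) minus the mean of the 24 libraries, for the 772 up-regulated and the 91 down-regulated DEGs at 9.7 ℃, in each library by labelled group (CK blue, ABA-100 red). The up-regulated set lies highest in ABA-100 (-4.1 ℃) and ABA-100 (9.7 ℃), at medians of 0.87 to 0.91 and 0.78 to 0.95.

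Pearson's r of log2(TPM + 1) over unigenes was 0.967 to 0.975 within ABA-100 (9.7 ℃), 0.974 to 0.977 within CK (9.7 ℃) and 0.951 to 0.960 between them. For ABA-100 (9.7 ℃), r was 0.948 to 0.965, 0.947 to 0.968 and 0.947 to 0.965 with ABA-100 at 10.2, -4.1 and -5.3 ℃. With CK at those stages it was 0.950 to 0.955, 0.947 to 0.953 and 0.955 to 0.959. For CK (9.7 ℃), r was 0.966 to 0.969, 0.958 to 0.968 and 0.964 to 0.973 with CK at those stages. With ABA-100 at those stages it was 0.945 to 0.958, 0.941 to 0.955 and 0.957 to 0.969. These values are across unigenes, which are not independent replicates.

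The difference between 2 stages was tested directly as an interaction contrast of the same fit. The ABA-100 minus CK difference at 9.7 ℃ departed from that at 10.2 ℃ for 977 unigenes (4.54%), 707 of them toward ABA-100 at 9.7 ℃. Against -4.1 ℃ the count was 869 (4.04%) with 531 toward ABA-100, and against -5.3 ℃ it was 1201 (5.58%) with 1101 toward ABA-100. With the close pairs averaged the counts were 640, 444 and 909. Over all unigenes tested, the median of the difference between stages was 0.20, 0.13 and 0.22 in log2, also toward ABA-100 at 9.7 ℃. With median-of-ratios scaling the counts were 811, 803 and 885, and with quantile normalization 794, 793 and 800. Of the 772 up-regulated DEGs, 194 were called higher than at 10.2 ℃ and 63 lower, 111 higher than at -4.1 ℃ and 103 lower, and 551 higher than at -5.3 ℃ and 0 lower. These 772 were chosen by the difference at 9.7 ℃ that enters each interaction, which in part fixes their counts. Over all unigenes tested, 270, 338 and 100 were called lower.

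Up-regulation at all 4 stages was led by DN6008_c0_g1, DN2826_c0_g2 and DN11311_c0_g2. DN6008_c0_g1 had 2.01, 2.25 and 1.48 TPM in CK (9.7 ℃) and 46.8, 23.6 and 21.5 TPM in ABA-100 (9.7 ℃). Its log2 fold change was 3.36 at 9.7 ℃, 4.99 at 10.2 ℃, 5.86 at -4.1 ℃ and 1.197 at -5.3 ℃. For DN2826_c0_g2 these were 2.70, 3.65, 4.31 and 1.38, and for DN11311_c0_g2 they were 2.29, 3.38, 5.01 and 1.26. In all 3 the change was largest at -4.1 ℃ and smallest at -5.3 ℃. Down-regulation at all stages was led by DN32973_c0_g1, DN24845_c0_g1 and DN2759_c0_g1, with log2 fold changes of -2.75, -1.62 and -2.17 at 10.2 ℃.

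A few DEGs had the opposite call at 10.2 ℃. DN17299_c0_g1, lower in ABA-100 at 9.7 ℃, was listed at 0 in all 3 CK libraries at 10.2 ℃ and at 36.3, 23.9 and 35.3 TPM in ABA-100. DN9727_c0_g1 had 31.8, 30.6 and 37.1 TPM in CK and 12.7, 12.5 and 10.4 TPM in ABA-100 at 9.7 ℃, and 11.3, 12.6 and 7.04 TPM against 38.5, 41.2 and 37.2 TPM at 10.2 ℃. The order of the labelled treatments was thus reversed, with log2 fold changes of -1.41 and 1.85. DN13682_c0_g1 likewise had -2.06 at 9.7 ℃ and 1.74 at 10.2 ℃.

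In 3 up-regulated DEGs of this kind, ABA-100 replicate 1 stood far above the other 2 libraries of its group. DN2607_c0_g1 had 6.81, 6.49 and 7.51 TPM in CK and 127, 30.7 and 34.6 TPM in ABA-100, with log2 fold changes of 2.73 at 9.7 ℃ and -2.96 at 10.2 ℃. At 10.2 ℃ its CK libraries had 29.1, 25.9 and 79.3 TPM. DN31771_c0_g1 had 34.4, 4.30 and 4.03 TPM in ABA-100 and DN11180_c0_g1 had 33.6, 5.35 and 4.89 TPM, against at most 1.21 and 2.11 TPM in CK. All 3 calls at 9.7 ℃ were lost with the close pairs averaged (limma adjusted p 0.0582, 0.11 and 0.0881), and the last 2 also without ABA-100 replicate 1 (0.201 and 0.156). Without a CK library the adjusted p of DN31771_c0_g1 was 0.0552 to 0.0824, and that of DN11180_c0_g1 was 0.0529 and 0.0813 without CK replicates 2 and 3.

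Of the 772 up-regulated DEGs, 47 were also called in all 3 interactions with the same sign, which their choice at 9.7 ℃ favours. That count was 83 and 76 without ABA-100 replicates 2 and 3, and 10 with the close pairs averaged. DN13268_c0_g1 was listed at 0 in CK (9.7 ℃) and at 2.65, 7.42 and 4.40 TPM in ABA-100. DN8404_c1_g2 had 0.99, 1.48 and 3.36 TPM in CK and 10.8, 9.36 and 9.00 TPM in ABA-100 (log2 fold change 1.94), and 18.7, 20.3 and 15.2 TPM in CK (-5.3 ℃). Both calls were lost with the close pairs averaged (limma adjusted p 0.0602 and 0.126), and the first also without ABA-100 replicate 2 (0.0676). DN8825_c0_g1 had 9.67, 9.41 and 6.73 TPM in CK and 2.51, 4.19 and 4.54 TPM in ABA-100 at 9.7 ℃, a log2 fold change of -1.03 against 1.34 at -4.1 ℃ and 1.45 at -5.3 ℃. It was -0.95, -0.96 and -0.83 without CK replicate 1, CK replicate 2 and ABA-100 replicate 1, short of the fold threshold.

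The hubs, which the study chose on these same libraries, also varied over the stages. The ferrochelatase had 24.8, 26.2 and 26.2 TPM in ABA-100 (10.2 ℃), 73.8, 76.6 and 71.2 TPM at -4.1 ℃ and 13.9, 13.2 and 13.9 TPM at -5.3 ℃. Its log2 fold change was 1.27, 2.53 and -0.20 at those stages and 1.57 at 9.7 ℃. The zinc-binding regulator had log2 fold changes of -0.70, -1.59, -0.57 and -1.51 from 10.2 to 9.7 ℃. Phenylalanine ammonia-lyase was lower in ABA-100 at -4.1 ℃, at 0.99, 1.19 and 0.88 TPM against 9.65, 10.4 and 47.5 TPM in CK, and its log2 fold change of -3.16 there differed from the 0.42 at 9.7 ℃ (interaction 3.59, limma adjusted p 0.000237).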

How the data were processed

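The authors sequenced leaf RNA of 8 groups with 3 libraries each. Per the study's methods, reads were trimmed with SeqPrep and Sickle, unigenes were assembled de novo with Trinity, and abundance was estimated with RSEM. The labels name a SMARTER kit and the supplement a TruSeq kit. The deposited values are TPM, which the authors normalised for transcript length and to an equal sum per library. The authors' DESeq2 test needs read counts, which were not used here, so that test was not repeated, and the depth and counting error behind each TPM value are unknown.

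Groups and replicates came from the labels. Of 33344 unigenes, 89 were at 0 throughout, and the 21523 with at least 1 TPM in at least 3 of 24 libraries were tested on log2(TPM + 1), a scale that understates changes of low unigenes. All 24 libraries entered 1 limma fit (version 3.58.1, R 4.3.3, prior variance with trend) with the labelled group as the only term. Benjamini-Hochberg adjustment covered every unigene of a contrast, and the calls used the study's thresholds, an adjusted p up to 0.05 with a log2 fold change above 1 or below -1. Differences between stages were interaction contrasts. Counts of unigenes above 0 and shares of TPM were set against each other in exact permutation tests (two-sided). The fit was tried on simulated data, whose outcome is not given here and lends no support to the results. Figures were drawn with matplotlib 3.10.9.

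Unigenes were named by rule. These were the 8 DEGs of largest change in each direction among those that do not overlap between groups and reach a mean of 10 TPM, the 12 annotated hubs, the 4 most abundant DEGs in each direction, and up to 3 in each direction called the same way at all stages, the opposite way at 10.2 ℃, in all 3 interactions, or at 0 in 1 group, with the 5 most abundant unigenes. The members and lists were chosen with earlier results of these data known. Alternatives covered scaling, pseudocount, filters, the libraries fitted, weights, a replicate block and each library left out. Averaging the close pair of each group was added after the data were seen. No reference genome, annotation or sequence was used here.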

Additional observations from a re-analysis of the deposited data

Results flagged for a closer look

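These results differed between stages in a test of the difference itself, the interaction contrast of limma with an adjusted p up to 0.05 and a size above 1 in log2. Each value, unless named as a p, is the log2 fold change of ABA-100 against CK at 9.7 ℃ minus that at the other stage. Named unigenes were compared with 10.2 ℃ and the hubs with every stage. Named unigenes other than the hubs were chosen by their values at 9.7 ℃, some also by the interaction. Their interaction tests are thus not independent of that choice.

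Against 10.2 ℃, the difference was higher at 9.7 ℃ for DN2607_c0_g1 (5.69), DN31771_c0_g1 (4.73), DN7273_c0_g1 (4.70) and DN11180_c0_g1 (4.35). It was also higher for DN8404_c1_g2 (2.79), DN25301_c1_g1 (2.72), DN25507_c0_g1 (2.64) and DN4077_c0_g1 (2.50). The same held for DN24482_c1_g1 (2.28), DN10995_c0_g1 (2.05) and the hubs DN7698_c0_g1 (1.996) and DN5170_c1_g1 (1.89).

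It was lower at 9.7 ℃ for DN13682_c0_g1 (-3.80), DN16641_c2_g1 (-3.75) and DN9727_c0_g1 (-3.26). Lower values were also found for DN3142_c0_g1 (-3.09), DN6008_c0_g1 (-1.62), DN8825_c0_g1 (-1.62), DN11311_c0_g2 (-1.09) and DN24845_c0_g1 (-1.03). Of these, DN6008_c0_g1 and DN11311_c0_g2 were up-regulated at both stages, and less so at 9.7 ℃.

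For 7 unigenes a whole group at 9.7 or 10.2 ℃ was listed at 0, so no size is given. The difference was higher at 9.7 ℃ for DN12563_c0_g1, DN13268_c0_g1, DN10574_c0_g1 and DN11480_c0_g2 (limma adjusted p 0.0265, 0.0107, 0.00308 and 0.00457). It was lower for DN17299_c0_g1, DN11177_c0_g2 and DN15382_c0_g1 (limma adjusted p 3.82e-07, 0.0178 and 0.048).

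Against -4.1 ℃, the hubs DN8005_c0_g2 (-1.51), DN3196_c0_g1 (-1.21), DN2948_c0_g1 (-1.19) and DN477_c0_g1 (-1.15) had a lower difference at 9.7 ℃, and phenylalanine ammonia-lyase, DN13229_c0_g1, a higher one (3.59). Against -5.3 ℃ it was higher at 9.7 ℃ for DN2948_c0_g1 (1.86), the ferrochelatase DN3958_c0_g1 (1.78), DN5170_c1_g1 (1.66), DN7698_c0_g1 (1.65), DN7864_c0_g1 (1.63), DN8005_c0_g2 (1.21) and DN477_c0_g1 (1.12).

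With the close pairs averaged, the difference against 10.2 ℃ was no longer called for DN6008_c0_g1, DN11311_c0_g2, DN8404_c1_g2, DN3142_c0_g1, DN16641_c2_g1, DN24845_c0_g1, DN11177_c0_g2 and DN15382_c0_g1, nor that against -4.1 ℃ for DN3196_c0_g1, nor that against -5.3 ℃ for DN5170_c1_g1 and DN7864_c0_g1. With median-of-ratios scaling and quantile normalization, the difference against -5.3 ℃ fell below the fold threshold for DN8005_c0_g2 (0.99 and 0.90) and DN477_c0_g1 (0.89 and 0.83).

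Other settings also ended calls of the difference against 10.2 ℃. That of DN15382_c0_g1 was lost without any 1 of the 6 libraries (limma adjusted p 0.0693 to 0.0825), with the replicate block (0.0576), under both scalings, with a pseudocount of 0.1, without the variance trend and with every unigene above 0 kept. That of DN16641_c2_g1 was lost without any CK library (limma adjusted p 0.0583 to 0.102) or ABA-100 replicate 2 or 3 (0.0508 and 0.123), with a pseudocount of 0.1, without the trend, with every unigene above 0 kept and with the libraries of the contrast alone. DN3142_c0_g1 lost its call without ABA-100 replicates 2 or 3 (limma adjusted p 0.0613 and 0.0622) and with the libraries of the contrast alone, and DN11177_c0_g2 without CK replicate 1 (0.0551). DN11311_c0_g2 fell under the fold threshold without CK replicate 1 (-0.99) and ABA-100 replicate 2 (-0.90). DN24845_c0_g1 did so without CK replicate 3 (-0.94), ABA-100 replicate 1 (-0.98) and ABA-100 replicate 3 (-0.92) and with array weights (-0.99). With only the close pair of each 9.7 ℃ group, DN12563_c0_g1 lost this call (limma adjusted p 0.0644) and its call at 9.7 ℃ (0.0601), and DN15382_c0_g1, DN16641_c2_g1 and DN24845_c0_g1 lost this call too. Single outlying libraries were not tested for, since each group holds 3.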

How the results depend on the processing

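The direction of the DEG counts, with more up than down, held under every alternative. With the filter at a mean of 10 TPM, which tests fewer unigenes, 328 DEGs (293 up, 35 down) were called, the interactions against 10.2, -4.1 and -5.3 ℃ counted 312, 308 and 466, DEGs shared in the up direction with those stages 182, 227 and 20, those shared down with -4.1 ℃ 10, and those up in all interactions 11. At the adjusted p alone there were 4953 (3240 up, 1713 down). Quantile normalization gave 155 down, 800 against -5.3 ℃, 25 up in all interactions and a median log2 fold change of -0.045. Median-of-ratios scaling gave a median of 0, 29 up in all interactions and 9 shared down with -5.3 ℃. A pseudocount of 0.1 gave 1265 DEGs in all, 148 down, 32, 39 and 37 shared down with 10.2, -4.1 and -5.3 ℃, and 74 shared up with -5.3 ℃. Array weights gave 147 down, 20 shared down with 10.2 ℃ and 71 up in all interactions. The libraries of each contrast alone gave 13 shared down with -4.1 ℃ and 22 up in all interactions. Close pairs averaged gave 640 and 444 against 10.2 and -4.1 ℃ and 10 up in all interactions. The close pair of each 9.7 ℃ group alone, without CK replicate 3 and ABA-100 replicate 1, gave a median of 0, with 671 up and 129 down. The cause was not tested.

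Leaving out each library in turn gave 815 to 945 DEGs, 715 to 866 up and 79 to 117 down, and 564 of the 863 (525 up, 39 down) were called in all 6 such fits. The interactions gave 791 to 1077, 728 to 936 and 1013 to 1307, 39 to 83 were up in all of them, and the median log2 fold change was 0.0037 to 0.06. Replicate numbers did not pair the CK and ABA-100 libraries. Deviations of same-numbered libraries from their group means correlated at 0.017, 0.0045 and 0.0066. Between stages of a treatment no set of 3 was above 0.1 throughout. The highest were those of CK at 9.7 and -4.1 ℃ (0.088, 0.082 and 0.235). There each CK library at 9.7 ℃ correlated best with its own number. That also held for each ABA-100 library at 9.7 ℃ against -5.3 ℃, at 0.037, 0.033 and 0.030. Against 10.2 ℃ it held for 2 libraries in each treatment. It held for 1 in ABA-100 against -4.1 ℃ and for 0 in CK against -5.3 ℃. With a replicate block there were 862 DEGs (773 up, 89 down, 853 of the 863 shared). The block ended the calls of DN15382_c0_g1 and DN11056_c1_g1 (limma adjusted p 0.0518 and 0.0564).

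Of 42 named DEGs, 28 were called in every fit other than the 10 TPM filter, and the close pairs averaged ended 11 calls. Signs turned for uncalled unigenes near 0. Over the left-out libraries, DN8109_c0_g1 ranged from -0.45 to 0.045, above 0 without CK replicate 3, and DN24444_c2_g1 from -0.21 to 0.028, above 0 without ABA-100 replicate 1 and at 0 with quantile normalization. DN11670_c0_g1 ranged from -0.076 to 0.16 over the left-out libraries, and was at -0.039 with median-of-ratios scaling and -0.062 with close pairs averaged. Depth is unknown, so the precision of low values cannot be given.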
